A study of Homo sapiens with 12 samples.

Results

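Receptor tyrosine kinases outside the HER family can pass the signals that HER2, the product of ERBB2, sends through the RAS/ERK and PI3K/AKT pathways. The 10 genes described here encode such receptors and were listed by name: MET, EPHA2, INSR, IGF1R, FGFR1, FGFR2, FGFR3, FGFR4, AXL and KIT. Each symbol was matched to its Ensembl gene in GENCODE 29, and all 10 were found among the 58735 genes of the deposited tables. The rule for membership uses names only, but the list was drawn up with earlier results of these data known, the fall of ERBB2 among them, and the question was which of these receptors rose where ERBB2 fell.

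Poly-T selected mRNA was sequenced in 4 groups of 3 libraries each. SK-BR-3, a human line of breast cancer cells established long ago and known for its amplified ERBB2, received no treatment here. SK/EPI is the epirubicin-resistant line that the authors raised from SK-BR-3 by prolonged exposure to stepwise higher doses of this anthracycline, and whether it is a single clone is not given in the sources used here. SK/EPI-siNC and SK/EPI-siBCRP are SK/EPI cells transfected for 48 h with a control siRNA or with an siRNA against ABCG2, the gene of the efflux pump BCRP, so both groups are derived from the resistant line. The resistant line was set against SK-BR-3, and SK/EPI-siBCRP against SK/EPI-siNC. The deposited values are FPKM, in which fragments are scaled by exon length and sequencing depth, in a separate table for each comparison, so levels of SK/EPI and SK/EPI-siNC are given side by side without a test.

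Most receptor tyrosine kinases are single-pass membrane proteins that a ligand brings together. Their kinase domains then phosphorylate each other and recruit adaptors such as GRB2, SHC1, GAB1 and IRS1. MET binds hepatocyte growth factor (HGF), INSR and IGF1R bind insulin and the insulin-like growth factors, FGFR1 to FGFR4 bind fibroblast growth factors, AXL binds GAS6, KIT binds stem cell factor (KITLG), and EPHA2 binds membrane-anchored ephrin-A ligands on neighbouring cells. In HER2-positive breast cancer, MET, IGF1R, AXL and EPHA2 are known as receptors through which cells can keep signalling when HER2 is blocked.

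The libraries held between 15830381 and 20545811 reads on genes. The labels name separate libraries but no separate cultures, so p-values measure the spread between libraries, which may be technical. ABCG2 fell in SK/EPI-siBCRP, where it was at 2.84, 3.47 and 2.91 FPKM against 32.5, 32.7 and 33.7 FPKM in SK/EPI-siNC. The keratins KRT8, KRT18 and KRT19 and EPCAM were at 73.3 FPKM or more in every library, whereas CDH1, the E-cadherin gene, had no read in SK-BR-3 and stayed under 1 FPKM elsewhere. The 8 epithelial markers, ERBB2 among them, summed to between 3647 and 3852 FPKM in SK-BR-3 and between 2233 and 2352 FPKM in SK/EPI. Of the 7 tested, 4 were called lower and 2 higher there, and KRT19 fell from 1651 to 509 FPKM. Of the 6 immune and 4 endothelial markers, CD14 and CDH5 moved with the resistant line. The summed immune markers were at 1.39 to 1.77 FPKM in SK-BR-3 and 27.1 to 28.98 FPKM in SK/EPI, and the summed endothelial markers at 6.67 to 7.002 and 27.0 to 28.1 FPKM, while every other marker on both lists stayed under 1 FPKM. Both sums were also higher in SK/EPI-siBCRP than in SK/EPI-siNC without overlap, at 22.3 to 22.6 against 13.9 to 14.2 FPKM for the endothelial and 8.74 to 9.635 against 7.26 to 8.30 FPKM for the immune markers. The 6 fibroblast markers summed to less than 2 FPKM in each library. The part of these cells or markers in the results below was not tested.

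Sequences are shown for the siRNA, since a match to its seed was searched in the receptors and signalling genes, and for the promoters of the receptor that rose most and the receptor that fell most. The labels name the siRNA only as siBCRP. It is taken here to be siBCRP#1, from the title of a supplementary table on this comparison, and the values on seed matches rest on this identity. Its antisense strand is printed as RNA with the seed (bases 2 to 8) in capitals, and the sites in ABCG2 and IGF1R as DNA of the transcript with the bases that pair with the seed in capitals.
siBCRP#1 antisense: aUAACCAGcugauucaaaguauccc
siBCRP#1 sense: gggauacuuugaaucagcugguuau
ABCG2 site: gggatactttgaatcagCTGGTTAt
IGF1R site: atcattcagCTGGTTAtaagggttt
The ABCG2 site is a full match in the coding sequence, at positions 1368 to 1392 of the 4479-base transcript ENST00000237612.7. The IGF1R site lies in the 3′ UTR, and its capitals are positions 8976 to 8982 of the 12235-base transcript ENST00000650285.1, whose 3′ UTR starts at position 5148.

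RefSeq promoters (250 bases before to 50 after a transcription start, GRCh38.p14) were on hand for 9 of the 10 genes, all but FGFR1. In the plus-strand promoters of MET (chr7:116671946-116672245) and of the first start of FGFR4 (chr5:177086665-177086964), capitals mark the GC box GGGCGG, searched on both strands and thus also as CCGCCC, without overlaps.
MET promoter: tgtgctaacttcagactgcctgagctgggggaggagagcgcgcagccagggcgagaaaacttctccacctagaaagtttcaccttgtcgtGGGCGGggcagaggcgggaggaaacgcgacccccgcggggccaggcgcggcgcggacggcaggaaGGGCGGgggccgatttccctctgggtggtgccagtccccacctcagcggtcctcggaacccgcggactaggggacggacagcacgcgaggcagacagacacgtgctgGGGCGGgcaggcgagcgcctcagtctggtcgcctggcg
FGFR4 promoter: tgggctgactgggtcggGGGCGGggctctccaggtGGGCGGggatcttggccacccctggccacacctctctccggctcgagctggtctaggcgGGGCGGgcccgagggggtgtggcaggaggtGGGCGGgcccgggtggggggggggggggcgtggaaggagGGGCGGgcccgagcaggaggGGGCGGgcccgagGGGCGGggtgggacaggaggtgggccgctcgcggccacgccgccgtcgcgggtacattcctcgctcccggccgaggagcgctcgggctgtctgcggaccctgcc
The MET promoter held 3 GC boxes and the printed FGFR4 promoter 7, and 45% of 35116 RefSeq promoters hold at least 1. Neither held the AP-1 motif TGACTCA or its reverse complement TGAGTCA, which 4.95% of promoters hold. The promoter of the other FGFR4 start (chr5:177089300-177089599), not printed, held no GC box and no AP-1 motif. Which start these cells used was not tested. A match describes these letters only.

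ERBB2 fell in the resistant line, and MET rose to nearly its level in FPKM. ERBB2 (chromosome 17, 39687914 to 39730426, plus strand, GRCh38) was at 662, 652 and 662 FPKM in SK-BR-3 and at 128, 135 and 136 FPKM in SK/EPI. Every SK/EPI library lay under every SK-BR-3 library, and the mean was 4.95-fold lower (log2 fold change of FPKM + 1 of -2.30, standard error 0.04, limma adjusted p = 2.0e-09). Of the other HER receptors, ERBB3 rose from 25.5 to 29.7 FPKM, while EGFR was at 36.0 and 37.9 FPKM and did not pass the test, with an interval of its log2 fold change from -0.02 to 0.16. ERBB4 had 9 to 19 reads in the SK-BR-3 libraries and none in SK/EPI, which makes it at least 4.54-fold lower against the floor of 3 reads per library, and its test did not pass (adjusted p = 0.0513).

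Of the 10 receptor kinases, 8 had enough reads to be tested between SK/EPI and SK-BR-3, and all 8 passed at an adjusted p under 0.05. MET, INSR, EPHA2, FGFR2 and FGFR1 rose, and FGFR4, FGFR3 and IGF1R fell. In this comparison 74.9% of the 15823 genes tested passed, 37.9% as higher and 37% as lower, so that a call is common here. The 8 receptors had groups that did not overlap, as had 77.7% of all genes tested, and their median log2 fold change was 0.48 against 0.01 over all genes.

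MET (ENSG00000105976, chromosome 7, 116672390 to 116798386, plus strand) encodes the HGF receptor. It was at 5.18, 5.35 and 5.51 FPKM in SK-BR-3 and at 121.3, 120.8 and 120.3 FPKM in SK/EPI, from 579 to 739 and from 15372 to 16731 reads. The groups lay far apart with little spread inside each, and the mean was 22.6-fold higher in SK/EPI (log2 fold change 4.26, standard error 0.03, limma adjusted p = 6.4e-11). The FPKM of MET was 0.00812 ± 0.000262 of that of ERBB2 in SK-BR-3 and 0.908 ± 0.0314 of it in SK/EPI (SD, n = 3 each). Such ratios between genes depend on the exon lengths that FPKM divide by, 7039 bases for MET and 10321 for ERBB2. By reads, MET stayed under ERBB2 in SK/EPI, where ERBB2 had 25141 to 26296.

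INSR (chromosome 19, 7112255 to 7294034, minus strand), the insulin receptor, was at 2.00, 2.32 and 1.91 FPKM in SK-BR-3 and at 6.42, 6.63 and 6.81 FPKM in SK/EPI. No library of one group reached the other, and the mean rose 3.19-fold (log2 fold change 1.31, standard error 0.06). IGF1R (chromosome 15, 98648539 to 98964530, plus strand), its closest relative and the receptor of IGF1 and IGF2, was at 3.52, 3.19 and 3.47 FPKM in SK-BR-3 and at 2.92, 2.75 and 2.70 FPKM in SK/EPI. The highest SK/EPI library lay just under the lowest SK-BR-3 library, and the mean fell by 17.7% (log2 fold change -0.21, standard error 0.06, limma adjusted p = 0.0104). INSR thus passed from below IGF1R in SK-BR-3 to above it in SK/EPI.

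EPHA2 (chromosome 1, 16124337 to 16156087, minus strand), an ephrin-A receptor, was at 19.0, 19.3 and 17.3 FPKM in SK-BR-3 and at 33.2, 32.5 and 33.3 FPKM in SK/EPI. The increase was 1.78-fold without overlap (log2 fold change 0.80, standard error 0.04, limma adjusted p = 1.2e-06). EPHA2 had the highest level of the 10 receptors in SK-BR-3, 33.3% of their summed FPKM, and came after MET in each of the other groups.

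The 4 FGF receptors split by pairs. FGFR2 (chromosome 10, 121478334 to 121598458, minus strand) rose from 5.04, 5.30 and 5.61 FPKM in SK-BR-3 to 9.39, 9.11 and 9.26 FPKM in SK/EPI, and FGFR1 (chromosome 8, 38400215 to 38468834, minus strand) from 1.43, 1.67 and 1.61 FPKM to 1.97, 2.11 and 2.13 FPKM. These were increases of 1.74-fold and 1.32-fold, with log2 fold changes of 0.70 ± 0.05 and 0.26 ± 0.06 (standard error). FGFR3 (chromosome 4, 1793293 to 1808872, plus strand) fell from 10.8, 10.3 and 10.7 FPKM to 3.29, 4.05 and 4.02 FPKM. FGFR4 (chromosome 5, 177086886 to 177098144, plus strand) fell from 8.26, 9.12 and 8.94 FPKM to 2.11, 2.42 and 2.42 FPKM. Both decreases exceeded the spread within groups by far, at 2.80-fold for FGFR3 and 3.78-fold for FGFR4, with log2 fold changes of -1.28 ± 0.07 and -1.56 ± 0.06 (standard error). By FPKM, FGFR3 and FGFR4 ranked above FGFR2 and FGFR1 in SK-BR-3. FGFR2 ranked above the other FGF receptors in SK/EPI, where the ranges of FGFR4 and FGFR1 overlapped. This order depends on the exon lengths used. In SK/EPI, FGFR1 (13842 exonic bases) had 527 to 552 reads and FGFR4 (4829 exonic bases) had 200 to 219.

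AXL and KIT were too low to be tested. AXL (chromosome 19, 41219203 to 41261766, plus strand), the GAS6 receptor, had 2, 0 and 0 reads in SK-BR-3 and 8, 11 and 7 reads in SK/EPI. Against a floor of 3 reads per library, this put SK/EPI at least 2.71-fold higher, at a level that stayed under 0.12 FPKM. KIT (chromosome 4, 54657918 to 54740715, plus strand), the stem cell factor receptor, had 0, 2 and 2 reads in SK-BR-3 and none in SK/EPI, SK/EPI-siNC or SK/EPI-siBCRP, where a count of 0 allows up to 3 reads. Floors and bounds cover counting error only.

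**Figure D1:**
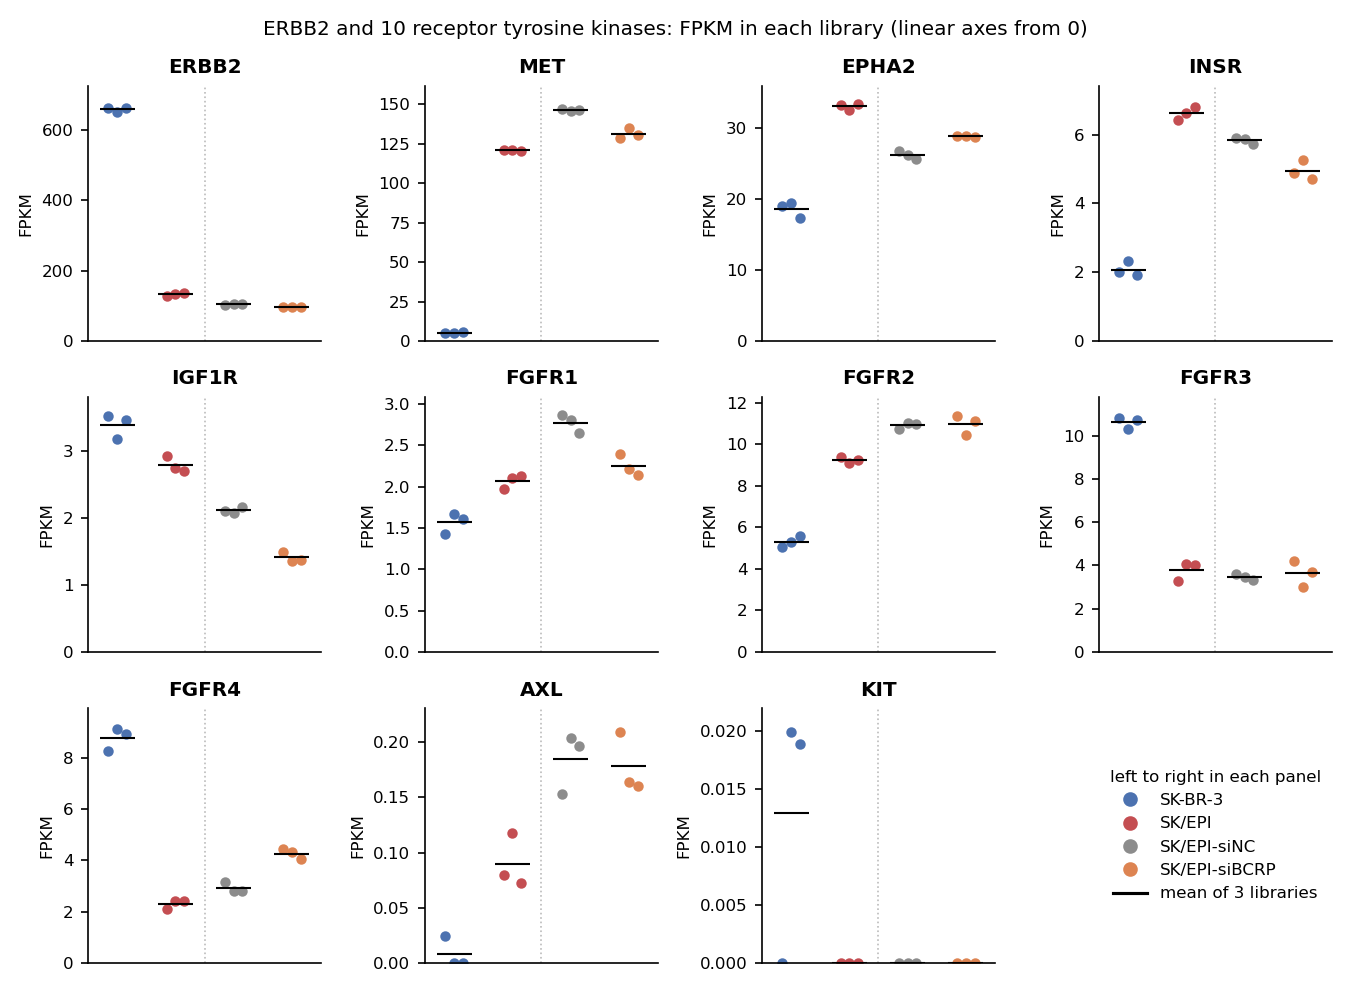
FPKM of ERBB2 and the 10 receptor kinases in each of the 12 libraries (points), with the mean of each group of 3 (black line) on linear axes from 0. The dotted line separates the 2 tables, which were not tested against each other. MET lies between 5.18 and 5.51 FPKM in SK-BR-3 and above 120 FPKM in every library of the resistant line, while ERBB2 falls from above 650 FPKM to 136 FPKM or less.

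The sum of the 10 receptors rose with MET. It was 55.7 ± 0.827 FPKM in SK-BR-3 and 180.8 ± 0.248 FPKM in SK/EPI (SD, n = 3 each), against 50.3 ± 0.867 and 60.0 ± 0.699 FPKM without MET. MET made up 9.61% of the sum in SK-BR-3 and 66.8% in SK/EPI, 72.9% in SK/EPI-siNC and 69.9% in SK/EPI-siBCRP. In FPKM, the 10 receptors together stood at 0.0845 of ERBB2 in SK-BR-3 and at 1.36 of it in SK/EPI. This ratio too depends on the exon lengths used. In bulk libraries, a change in the share of cells with a high level and a change of the level in every cell cannot be told apart.

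**Figure D2:**
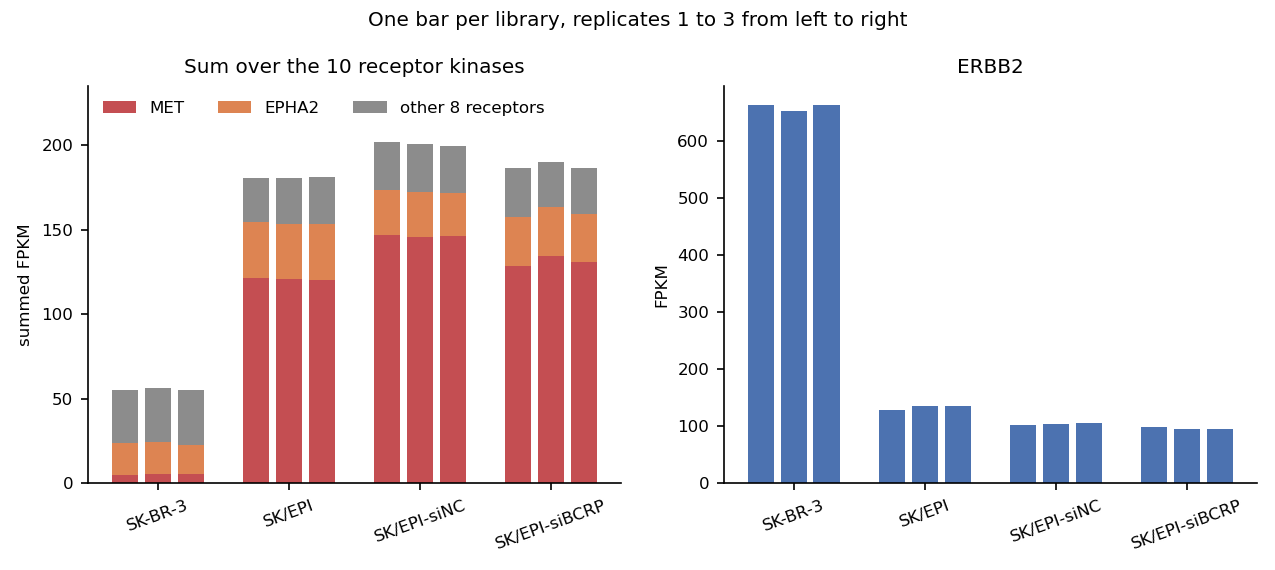
Summed FPKM of the 10 receptor kinases (left, stacked as MET, EPHA2 and the other 8) and FPKM of ERBB2 (right), a bar for each library, replicates 1 to 3 from left to right. The sum rises from 55.7 FPKM in SK-BR-3 to 180.8 FPKM in SK/EPI, mostly through MET, while ERBB2 drops from 659 to 133 FPKM.

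In the order of levels, neighbours whose libraries overlapped were MET and FGFR2 in SK-BR-3, FGFR4 and FGFR1 in SK/EPI and in SK/EPI-siNC, and FGFR4 and FGFR3 in SK/EPI-siBCRP, besides AXL and KIT in SK-BR-3 with at most 2 reads each. MET moved from the fourth place in SK-BR-3, behind EPHA2, FGFR3 and FGFR4, to the first in the other groups. These places are by FPKM and depend on the exon lengths used, from 4159 bases in EPHA2 to 13941 in IGF1R. SK/EPI and SK/EPI-siNC, set side by side without a test, had the same first 4 receptors, MET, EPHA2, FGFR2 and INSR, at 120.8, 33.0, 9.25 and 6.62 FPKM and at 146, 26.2, 10.9 and 5.83 FPKM.

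After BCRP silencing the receptors moved far less. Between SK/EPI-siBCRP and SK/EPI-siNC, 9 of the 10 were tested, and FGFR4 and EPHA2 rose, IGF1R, FGFR1, INSR and MET fell, and FGFR2, FGFR3 and AXL did not pass. Of the 16298 genes tested, 38.1% passed at an adjusted p under 0.05, 19.4% as higher and 18.7% as lower. The 6 receptors that passed had groups without overlap, as had 50.9% of all genes tested, and the median log2 fold change of the 9 was -0.01 against 0.00 over all genes. ERBB2 was at 103, 104 and 107 FPKM in SK/EPI-siNC and at 98.1, 96.2 and 96.1 FPKM in SK/EPI-siBCRP, so that it fell by 7.45% (log2 fold change -0.11, standard error 0.02, limma adjusted p = 0.0059). ERBB3 fell from 26.8 to 22.9 FPKM, and EGFR, at 35.4 and 34.5 FPKM, did not pass the test (interval of the log2 fold change from -0.09 to 0.01).

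FGFR4 had the largest rise. It was at 3.15, 2.80 and 2.82 FPKM in SK/EPI-siNC and at 4.44, 4.31 and 4.06 FPKM in SK/EPI-siBCRP, 1.46-fold higher without overlap (log2 fold change 0.43, standard error 0.06, limma adjusted p = 0.0011). EPHA2 went from 26.8, 26.2 and 25.6 FPKM to 28.8, 28.9 and 28.7 FPKM, 1.10-fold higher with a log2 fold change of 0.13 ± 0.02 (standard error). EPHA2 was the only receptor of the 10 called higher in both comparisons, in which 37.9% and 19.4% of all genes tested were called higher. The share of all genes called alike in both was not computed.

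IGF1R had the largest fall. It was at 2.11, 2.07 and 2.17 FPKM in SK/EPI-siNC and at 1.496, 1.36 and 1.38 FPKM in SK/EPI-siBCRP, so that it fell by 33.2% without overlap (log2 fold change -0.37, standard error 0.05, limma adjusted p = 0.0013). IGF1R was also the only receptor of the 10 called lower in both comparisons, in which 37% and 18.7% of all genes tested were called lower.

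MET, INSR and FGFR1, which were higher in SK/EPI than in SK-BR-3, fell after silencing. MET was at 146.8, 146.0 and 146.1 FPKM in SK/EPI-siNC and at 128.6, 134.7 and 130.7 FPKM in SK/EPI-siBCRP, so that it fell by 10.2% (log2 fold change -0.15, standard error 0.02, limma adjusted p = 0.0018). INSR went from 5.90, 5.86 and 5.73 FPKM to 4.89, 5.25 and 4.72 FPKM, and FGFR1 from 2.87, 2.81 and 2.65 FPKM to 2.39, 2.22 and 2.14 FPKM. No library of one group reached the other in either gene, and INSR fell by 15.1% and FGFR1 fell by 18.9%. The call of FGFR1 (limma adjusted p = 0.0189) was lost without SK/EPI-siBCRP replicate 2 or 3, or without SK/EPI-siNC replicate 1 or 2, where its adjusted p was between 0.0567 and 0.0625. MET and ERBB2 fell by similar shares. In FPKM, MET thus stood at 1.40 ± 0.0266 of ERBB2 in SK/EPI-siNC and at 1.36 ± 0.0444 of it in SK/EPI-siBCRP (SD, n = 3 each), with overlapping libraries.

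FGFR2, FGFR3 and AXL showed no difference that passed the test. The 95% intervals of their log2 fold changes ran from -0.08 to 0.09 for FGFR2, from -0.18 to 0.27 for FGFR3 and from -0.10 to 0.09 for AXL, with overlapping libraries in each. AXL was at 0.15, 0.20 and 0.20 FPKM in SK/EPI-siNC and at 0.21, 0.16 and 0.16 FPKM in SK/EPI-siBCRP, from 16 to 21 reads per library.

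**Figure D3:**
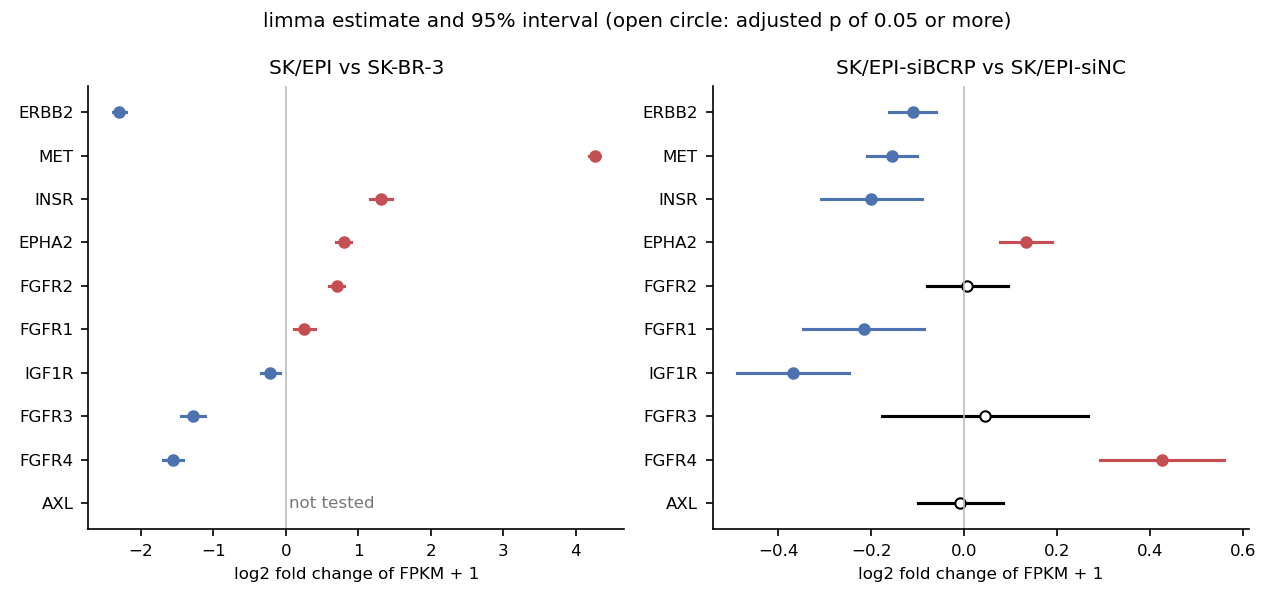
Log2 fold change of FPKM + 1 with its 95% interval from limma for ERBB2 and the receptor kinases in both comparisons, on axes of different width (red higher, blue lower, open not passing an adjusted p of 0.05). In SK/EPI, MET stands apart at 4.26 and ERBB2 at -2.30, and after silencing every value lies between -0.37 and 0.43. AXL was not tested in the first comparison and KIT in neither.

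The seed of the siRNA is matched in the 3′ UTR of IGF1R. The 7 bases CTGGTTA, which pair with bases 2 to 8 of the antisense strand printed above, were searched in the 3′ UTR of 1 GENCODE 29 transcript of each gene, that with the longest coding sequence. Among the 10 receptors, only the 7088-base 3′ UTR of IGF1R held them, at a single site. The result was the same over every coding transcript of the 10, with all 4 of IGF1R holding the match and none of the others, whose longest 3′ UTRs ran from 468 bases in FGFR4 to 4801 bases in INSR. This search was made after the values had been seen.

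A larger share of the genes with this match than of those without it was called lower after silencing. Of 12892 tested genes with a 3′ UTR, 1054 (8.18%) held the match, and 43.3% of these were called lower and 11.01% higher, against 17.9% and 23.8% of the genes without it. The median log2 fold change was -0.10 with the match and 0.01 without it. The genes with a match have longer 3′ UTRs, with a median of 3052 against 846.5 bases, so the shares are also given by length. Among 3′ UTRs under 1000 bases, 49.1% of 108 genes with a match and 16.1% of 6487 without it were called lower. From 1000 to under 3000 bases, the shares were 44.8% of 411 and 19.8% of 3785. At 3000 bases or more, the class of IGF1R, they were 40.9% of 535 and 21.1% of 1566, and 19.1% of the genes with a match and 4.21% of those without it had a log2 fold change as low as that of IGF1R or lower. Between SK/EPI and SK-BR-3, where no siRNA was used, 40.4% of 1057 genes with the match and 40.0% of 11834 without it were called lower. Whether the siRNA acted on IGF1R mRNA through this site was not tested.

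**Figure D4:**
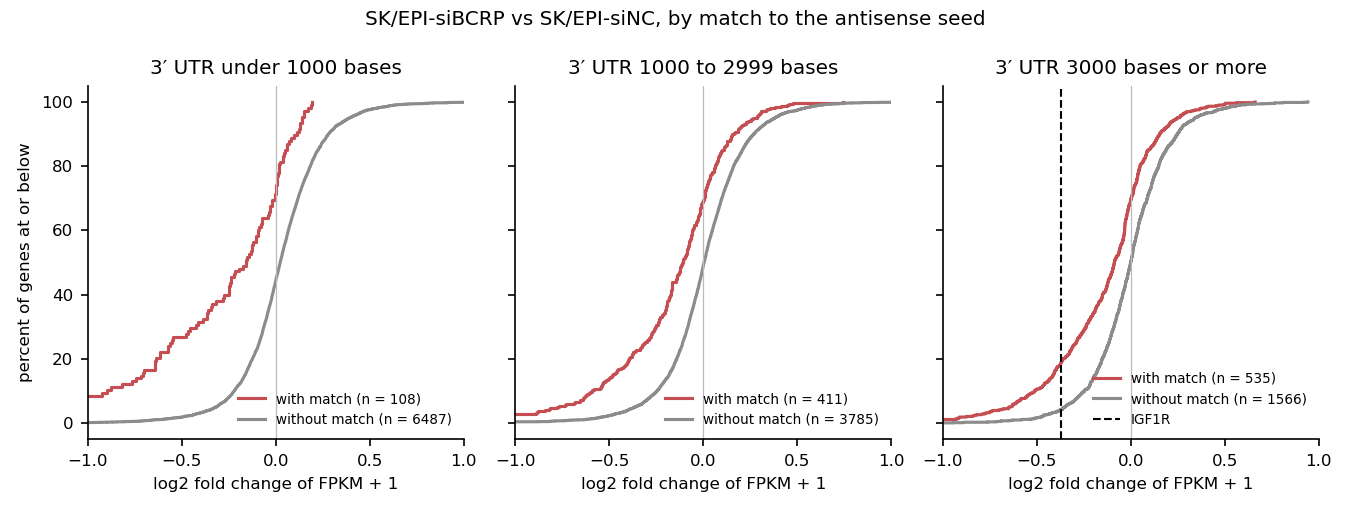
Cumulative share of genes by log2 fold change of FPKM + 1 between SK/EPI-siBCRP and SK/EPI-siNC, for genes with (red) and without (grey) the 7-base match to the antisense seed in their 3′ UTR, in 3 classes of 3′ UTR length. Genes with a match lie to the left in each class, and IGF1R (dashed) is at -0.37.

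Most ligands of these receptors had too few reads to be tested. Of 30 ligand genes listed, 9 passed the filter in each comparison. HGF, the MET ligand, and IGF2 had no read in any library, and IGF1 and INS had at most 3 reads. The gene models named IGF2 share 73.7% and 87.9% of their exonic bases with each other, and INS shares 31.7% with INS-IGF2. IGF1 shares 82.4% with HELLPAR on the opposite strand, which these libraries do not tell apart. The low counts of IGF2, INS and IGF1 thus do not show that they were not expressed. Between SK/EPI and SK-BR-3, FGF1, EFNA1, FGF18 and FGF2 rose, KITLG, EFNA5, EFNA3 and EFNA4 fell, and GAS6, at 0.200 and 0.195 FPKM, did not pass. The median of the 9 was -0.01, where 37.9% of all genes tested were called higher and 37% lower.

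FGF1, a fibroblast growth factor that binds all 4 FGF receptors, was at 0.10, 0.15 and 0.20 FPKM in SK-BR-3 and at 13.2, 13.3 and 14.05 FPKM in SK/EPI, the largest change among the ligands (log2 fold change 3.66). In the second table it stood at 3.22 FPKM in SK/EPI-siNC and fell to 2.35 FPKM in SK/EPI-siBCRP. FGF18 and FGF2, with at most 1 read per library in SK-BR-3, were at least 9.58-fold and 25.7-fold higher in SK/EPI. EFNA1, a ligand of EPHA2, rose from 42.4 to 82.9 FPKM, and KITLG fell from 24.8 to 9.36 FPKM while its receptor KIT had at most 2 reads in any library. EFNA3 and EFNA4 share 44.7% and 15% of their exonic bases with AL691442.1 on the same strand, and FGF2 shares 11.9% with NUDT6, so their reads could have been divided with these genes.

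After silencing, GAS6 rose from 0.535 to 0.876 FPKM, with 0.54, 0.53 and 0.54 FPKM in SK/EPI-siNC and 0.92, 0.80 and 0.90 FPKM in SK/EPI-siBCRP. FGF1, KITLG and EFNA1 fell, EFNA1 from 62.6 to 54.8 FPKM and KITLG from 2.17 to 1.61 FPKM, and the other 5 tested ligands did not pass. Of all genes tested here, 19.4% were called higher and 18.7% lower.

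The listed co-receptors and binding proteins, which present or hold back the ligands, numbered 19, of which 14 were tested. In SK/EPI compared with SK-BR-3, 5 rose and 9 fell, with a median log2 fold change of -0.49, where 37.9% of all genes tested were called higher and 37% lower. CD44, a hyaluronan receptor whose variants can serve as MET co-receptors, rose from 0.386 to 7.53 FPKM (19.5-fold), and IGFBP2, which binds insulin-like growth factors, from 7.67 to 36.9 FPKM. IGFBP3, another such binding protein, fell from 21.9 to 1.62 FPKM, and NRP1, a co-receptor for several growth factors, from 4.75 to 0.0370 FPKM. After silencing 8 of 14 rose and 2 fell, against 19.4% of all genes tested called higher and 18.7% lower. IGFBP6 rose from 0.393 to 1.22 FPKM and FGFRL1, a decoy FGF receptor, from 4.86 to 6.596 FPKM, while SDC1, a heparan sulfate carrier, fell from 54.1 to 43.8 FPKM and NRP1 from 0.300 to 0.116 FPKM.

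Among adaptors and PI3K/AKT components, 25 of 27 were tested. Between SK/EPI and SK-BR-3, 11 rose, 9 fell and 5 did not pass, with a median log2 fold change of 0.03. Of all genes tested there, 37.9% were called higher and 37% lower. GAB2, a docking protein that binds SHP2 and PI3K, was at 0.70, 0.74 and 0.68 FPKM in SK-BR-3 and at 26.3, 27.5 and 27.6 FPKM in SK/EPI, a 38.4-fold increase (log2 fold change 4.04). GRB10, an adaptor that binds the insulin and IGF1 receptors and dampens their signal, rose from 0.149 to 10.6 FPKM (71.5-fold). GAB1, the main docking protein of MET, rose from 2.20 to 7.61 FPKM. GRB7, which lies next to ERBB2 and binds HER2, fell from 112 to 45.5 FPKM, and AKT1 from 24.7 to 11.2 FPKM. IRS1, the docking protein of INSR and IGF1R, fell from 2.11 to 0.780 FPKM, while IRS2 rose from 0.0334 to 0.618 FPKM.

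After silencing, 5 of the 25 rose, 9 fell and 11 did not pass, with a median of -0.05, where 19.4% of all genes tested were called higher and 18.7% lower. CBL, a ubiquitin ligase that marks MET, EGFR and other receptors for degradation, was at 8.45, 8.54 and 8.45 FPKM in SK/EPI-siNC and at 5.30, 4.54 and 4.83 FPKM in SK/EPI-siBCRP. IRS1 was at 2.23, 2.32 and 2.52 FPKM and then at 1.26, 0.99 and 1.06 FPKM. CBL and IRS1 both fell without overlap, at log2 fold changes of -0.69 and -0.68, whereas the largest rises, of PTPN11 and SHC1, were 0.20 each. Set side by side without a test, IRS1 in SK/EPI-siNC lay above its means in SK/EPI (0.780 FPKM) and SK-BR-3 (2.11 FPKM). Of all 98 listed receptors, ligands and signalling genes tested with a 3′ UTR, 14 held the seed match. These were 9 of the 29 called lower, 1 of the 23 called higher (LMTK2) and 4 of the 46 not called. Over all 12892 tested genes with a 3′ UTR, 1054 held it. Among these were 456 of the 2577 called lower and 116 of the 2932 called higher. The 9 listed genes called lower were CBL, IRS1, GAB1 and CBLB, with 2 matches each, and SPRED1, IGF1R, PIK3R1, NRP1 and PIK3CD, with 1 each. This was again the 1 transcript searched per gene. Over all coding transcripts with a 3′ UTR, 2 of 5 of CBL, 2 of 5 of CBLB and 1 of 4 of GAB1 held a match. So did 1 of 5 of PIK3R1, 6 of 14 of NRP1 and every one of IRS1, SPRED1, IGF1R and PIK3CD. The 4 not called were EGFR, also with 2 matches and at a log2 fold change of -0.04, EPHB2, SPRY4 and PIK3CB. They are named here after their values were seen, and the part of the match in these values was not tested.

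Output genes of ERK signalling moved in both directions. Between SK/EPI and SK-BR-3, 17 of 18 were tested, of which 9 rose, 5 fell and 3 did not pass, with a median log2 fold change of 0.14. The shares of all genes tested were 37.9% called higher and 37% lower. FOS, an immediate early transcription factor, rose from 0.640 to 5.54 FPKM and PHLDA1 from 0.599 to 4.85 FPKM, while DUSP4, a phosphatase of ERK and related kinases, fell from 23.3 to 5.61 FPKM and SPRY4, a feedback inhibitor of receptor tyrosine kinases, from 5.20 to 1.27 FPKM. Within families the directions differed: DUSP5 rose from 4.47 to 15.9 FPKM and SPRED2 from 7.27 to 14.2 FPKM, against falls of DUSP4 and of SPRED1, from 4.22 to 2.49 FPKM. After silencing, 4 of 16 rose and 4 fell, against 19.4% of all genes tested called higher and 18.7% lower. IER3 rose from 45.7 to 82.4 FPKM and ETV4 from 1.89 to 2.99 FPKM, and ERRFI1, an inhibitor of HER receptors, fell from 18.5 to 12.1 FPKM and SPRED1 from 3.01 to 1.99 FPKM. IER3 shares 26.5% of its exonic bases with IER3-AS1 on the opposite strand, and the libraries do not mark strand.

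**Figure D5:**
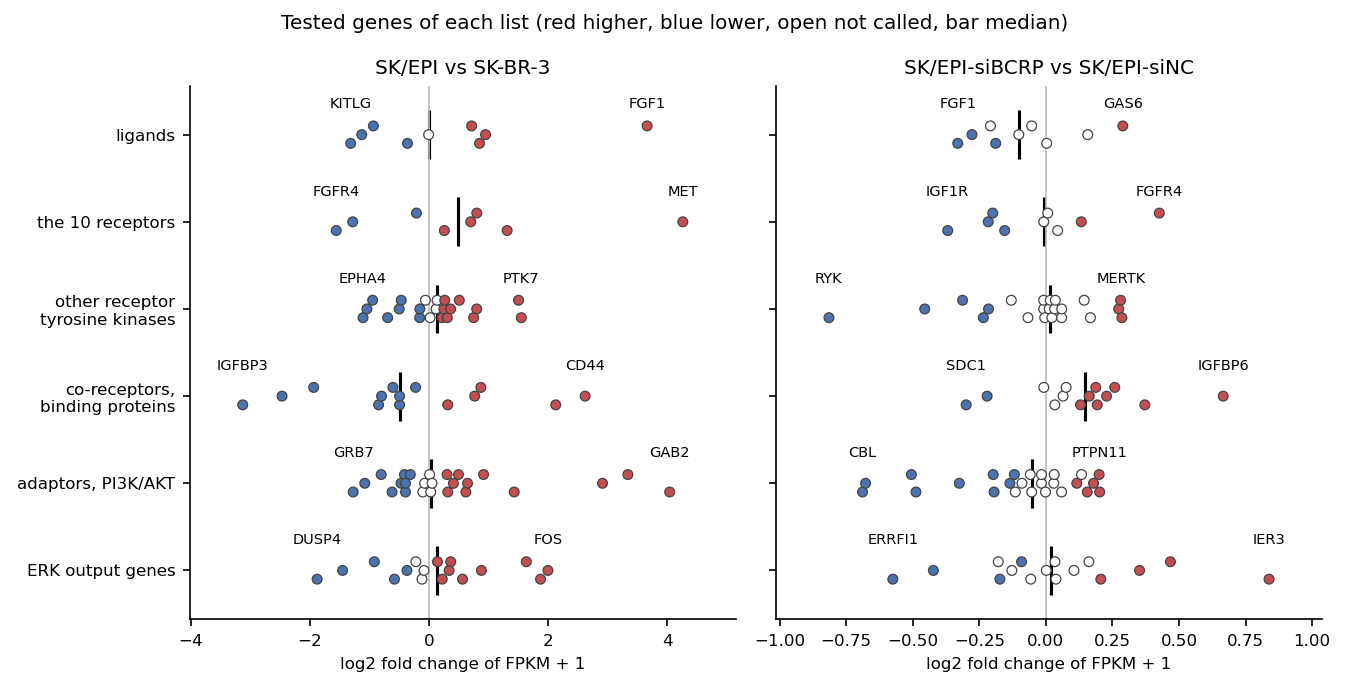
Log2 fold change of FPKM + 1 of the tested genes of each list in both comparisons (a point for each gene, red higher, blue lower, open not passing), with the median of each list as a bar and the genes with the largest calls named. MET at 4.26, GAB2 at 4.04 and FGF1 at 3.66 lead their lists in SK/EPI, and after silencing CBL at -0.69 and RYK at -0.81 are lowest in theirs.

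Of 44 further receptor tyrosine kinases, 22 were tested in each comparison. Between SK/EPI and SK-BR-3, 10 rose, 8 fell and 4 did not pass, with a median log2 fold change of 0.13. Of all genes tested there, 37.9% were called higher and 37% lower. PTK7, a Wnt-pathway pseudokinase, rose from 0.943 to 4.69 FPKM and EPHB2, an ephrin-B receptor, from 0.432 to 3.06 FPKM. EPHA4 fell from 1.83 to 0.312 FPKM and EPHB3 from 17.5 to 7.97 FPKM. MST1R, the closest relative of MET, fell from 13.3 to 7.86 FPKM. None of the 22 reached the log2 fold change of MET on the scale of FPKM + 1, which understates changes of low genes. After silencing 3 rose and 5 fell, with MERTK and EPHB6 highest (0.29 and 0.28) and RYK and EPHB3 lowest (-0.81 and -0.46). The shares of all genes tested were 19.4% called higher and 18.7% lower.

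The neighbourhoods of the receptors on their chromosomes were also described, counting genes within 1 Mb. Next to MET, 7 genes were tested between SK/EPI and SK-BR-3, of which 3 were called higher and 3 lower. CAV1, which encodes caveolin 1 and was picked out after its values were seen, rose from 4.61 to 23.3 FPKM, a 5.06-fold change, while TES, CAPZA2 and ST7 fell, with log2 fold changes of -0.85, -0.43 and -0.54. CAV2 rose from 0.639 to 1.03 FPKM and WNT2 from 0.0757 to 0.323 FPKM. In the order of their starts, CAV2, CAV1 and MET, which all rose, lay between TES and CAPZA2, which fell. Next to INSR, 36 of 43 genes were called higher and none lower, with a median log2 fold change of 0.50. Next to FGFR4, 22 of 36 were called lower and 6 higher (median -0.29), and next to ERBB2, 33 of 49 were called lower and 10 higher (median -0.53). INSR, FGFR4 and ERBB2 moved in the direction of most of their tested neighbours. IGF1R and FGFR3 fell while 4 of 6 and 16 of 29 neighbours were called higher, with 0 and 4 lower. FGFR2 and EPHA2 rose while 5 of 6 and 14 of 35 neighbours were called lower, with 0 and 10 higher. FGFR1 rose among 19 neighbours, 7 of them called higher and 7 lower. Over all genes tested, 37.9% were called higher and 37% lower. Copy number cannot be read from these files.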

How the data were processed

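Poly-T selected RNA of 12 libraries in 4 groups was sequenced. The submitters' processing notes name HISAT2 2.0.5, featureCounts 1.5.0-p3, DESeq2 1.16.1 and hg38, and the library kit does not mark strand. FPKM of 58735 genes were deposited by the authors, as 2 tables of 6 libraries each. Every nonzero value multiplied by its GENCODE 29 merged exon length was a whole multiple of a library's step (100.0% within a tolerance of 0.05), which gave back the reads per gene.

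A gene was tested when 3 or more libraries of its table reached 10 reads, scaled to the median library, and all of them summed to 15 or more. This left 15823 and 16298 genes. The model was limma 3.58.1 in R 4.3.3 (lmFit, eBayes with trend) on log2(FPKM + 1) with the group as its term, two-sided, for each table separately, with Benjamini-Hochberg adjustment over all genes tested and a threshold of 0.05. Fold changes on this scale understate those of low genes. Folds given as such are ratios of mean FPKM. SD are over 3 libraries. Replicates differed by more than counting noise (chi-square per degree of freedom of 1.64 to 4.27). The steps were checked on simulated data.

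The receptors, the lists and the tests were chosen with earlier results of these data known. From each list and comparison, the 2 largest rises and 2 largest falls among called genes without overlap are named, besides all receptors, HER genes and called ligands. Where others are named, such as GAB1, IRS2, DUSP5, SPRED2 and MST1R, they were chosen after their values were seen. Pathway genes were listed from general knowledge of their roles. Promoters are RefSeq's, 3′ UTRs GENCODE 29's and the siRNA from the study's oligonucleotide list. Figures used matplotlib in Python.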

Additional observations from a re-analysis of the deposited data

How the results depend on the processing

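The alternatives were a pseudocount of 0.1, testing every gene with a read, requiring 10 reads in each library, median-of-ratios scaling, limma's voom on recovered reads, the replicate number as a block, and leaving out each library in turn. Between SK/EPI and SK-BR-3, 5 receptors higher and 3 lower were found under each, except that without the filter AXL was also tested and called higher (log2 fold change 0.11, adjusted p = 0.0156, limma). After silencing, 2 were higher throughout, and 3 to 4 were lower with a library left out. ERBB2 stayed lower, between -2.32 and -2.27 in SK/EPI and between -0.12 and -0.10 after silencing with a library left out. Of 204 values of single receptors, 192 kept direction and call, and 4 fell short of the threshold, all for FGFR1 after silencing with a library left out. The other 8 changed sign among receptors that had not passed after silencing. With a library left out, AXL ranged from -0.02721 to 0.003822, FGFR2 from -0.01746 to 0.0397 and FGFR3 from -0.04438 to 0.1446, and FGFR2 was at -0.005909 with voom. Levels (40 compared) and list counts (40 compared) kept within the spread or within 1.5 times under the settings run for them. For levels the only setting was median-of-ratios scaling, with factors from 0.9944 to 1.003, which could hardly move them. Voom called 6804 genes higher and 5324 lower in SK/EPI, with a median of 0.10, and 3395 and 3647 after silencing.

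Same-numbered libraries deviated from their group means with correlations from -0.048 to -0.002 in the first table and from 0.009 to 0.055 in the second. For libraries of different number they ran from -0.011 to 0.054 and from -0.05 to 0.027. All were small, and whether same-numbered libraries shared a batch was not tested. With the replicate block, 5 receptors were higher and 3 lower in SK/EPI, 2 higher and 4 lower after silencing, and 5889 and 5767 genes were called in the first comparison and 2896 and 2744 in the second. Depth limits AXL and KIT, with at most 21 and 2 reads per library.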
